A study of Homo sapiens with 9 samples.

Results

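The 31 genes described here encode proteins of homologous recombination, the Fanconi anaemia pathway, mismatch repair and the DNA damage checkpoint. They were chosen by name, with earlier results of these data known, out of 27655 genes in the table. Poly(A) RNA of Caco-2, an established line from a human colon adenocarcinoma, was sequenced in 3 groups of 3 libraries. Every library, controls included, came from cells treated with 10 µM lovastatin, an inhibitor of cholesterol synthesis, for 48 h in medium with lipid-depleted serum. The first group had lovastatin alone, the second lovastatin and 10 µM SGA360, and the third lovastatin and 10 µM SGA315. Both compounds are given in the labels as selective ligands of AHR, the aryl hydrocarbon receptor, which is a transcription factor that small molecules activate. Cells without lovastatin were not analysed here, and the data come from 1 cell line, 1 dose and 1 time. Whether replicates are separate cultures is not stated in the labels, so a p-value here reflects only how much these libraries vary, and that variation may be technical.

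Homologous recombination repairs a broken chromosome by copying its sister. BRCA1 with its partner BARD1 starts the repair, PALB2 brings in BRCA2, and BRCA2, helped by a set of paralogues (RAD51B, RAD51C, RAD51D, XRCC2 and XRCC3), prepares resected single strands for strand exchange. The Fanconi pathway repairs links between the strands: a core complex attaches ubiquitin to the FANCD2 and FANCI pair, which then recruits nucleases and recombination proteins. The kinases ATM and ATR sense breaks and stalled forks and pass the signal to CHEK2 and CHEK1, which hold the cell cycle. Many of these genes are transcribed mainly in dividing cells, in late G1 and S phase, under E2F transcription factors.

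Depth was 12332760 to 16868372 counts per library, 1 transcript entry per gene, and the libraries of a group varied by a biological coefficient of variation of 2.16%. Of 15 epithelial and Caco-2 markers 13 passed the filter on low counts, and KRT20 and CDX1 did not, at 18 and 0 counts over all libraries. Levels are given in CPM, counts scaled to the size of the library. The summed level of the epithelial markers was 9630 to 9730 CPM in the controls, 6830 to 7300 with SGA360 and 5620 to 5710 with SGA315. Of 5 leukocyte markers 2 passed (CD14 and LYZ), with a summed level of 18.6 to 19.1, 10.9 to 14.8 and 9.77 to 12 CPM in the same order, and PTPRC and CD3E, which did not pass, had 37 and 7 counts in all. Of 6 fibroblast and endothelial markers 4 passed, at a summed 53.6 to 58.1, 38.4 to 41.7 and 29.2 to 31.9 CPM, and COL1A2 had 1 count in all. Each sum was lower with either ligand, but single markers did not all follow their sum. CDX2 and ALPI lay above the controls in every ligand library, and CD14 and PDGFRB with SGA360 overlapped the controls. The part of the lower sums in the results was not tested.

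Most of the 31 genes were lower with either ligand, by less than 2-fold in every case, and a small group with ATM and ATR was higher. Of all tested genes, 1.42% were called lower by at least 2-fold with SGA360 and 2.15% with SGA315. All 31 passed the filter on low counts. A gene is called where the Benjamini-Hochberg adjusted p of edgeR's quasi-likelihood test over all 14668 tested genes was under 0.05. With SGA360, 5 of the 31 were called higher and 19 lower, 7 were not called, and the median log2 fold change was −0.21 (range −0.58 to 0.67). Over all tested genes 62.7% were called in that comparison, 31.4% higher and 31.4% lower, with a median of 0.02. With SGA315, 7 were called higher and 22 lower, 2 were not called, and the median was −0.29 (−0.82 to 0.63). Over all genes 69.2% were called with SGA315, 36% higher and 33.2% lower, with a median of 0.04. In all, 77.4% of the 31 genes were called with SGA360 and 93.5% with SGA315, and 61.3% and 71% of them were called lower. In bulk RNA, a smaller number of cells that express a gene and less RNA per cell cannot be told apart. Scaling to library totals in place of TMM, edgeR's default, moved the median of all genes from 0.02 to 0.14 with SGA360 and from 0.04 to 0.16 with SGA315. On that scale 9 of the 31 were higher and 13 lower with SGA360, and 7 higher and 18 lower with SGA315, so the changes given here are relative to the TMM scale.

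The genes called higher with SGA360 were PALB2, RAD51B, PMS2, ATM and ATR, and those called higher with SGA315 were these, FANCE and FANCF. RAD51C, XRCC3 and CHEK2 were called lower with SGA315 and not called with SGA360. RAD51D and FANCL were called with neither ligand. The ligand comparisons share the 3 lovastatin libraries and are not independent of each other, so their values are given side by side. Library by library, the median of the 31 genes against the lovastatin mean was 0.01, 0.01 and −0.04 (log2) in the lovastatin libraries, −0.20, −0.20 and −0.23 with SGA360, and −0.32, −0.27 and −0.31 with SGA315. The 3 groups did not overlap in this median, while the median of all genes in single libraries stayed between −0.00 and 0.04. With SGA360, 19 of the 31 lay wholly below the lovastatin libraries and 7 wholly above, beside 33% and 33.4% of all genes. With SGA315, 21 lay wholly below and 6 wholly above, beside 33.8% and 36.5% of all genes.

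**Figure D1:**
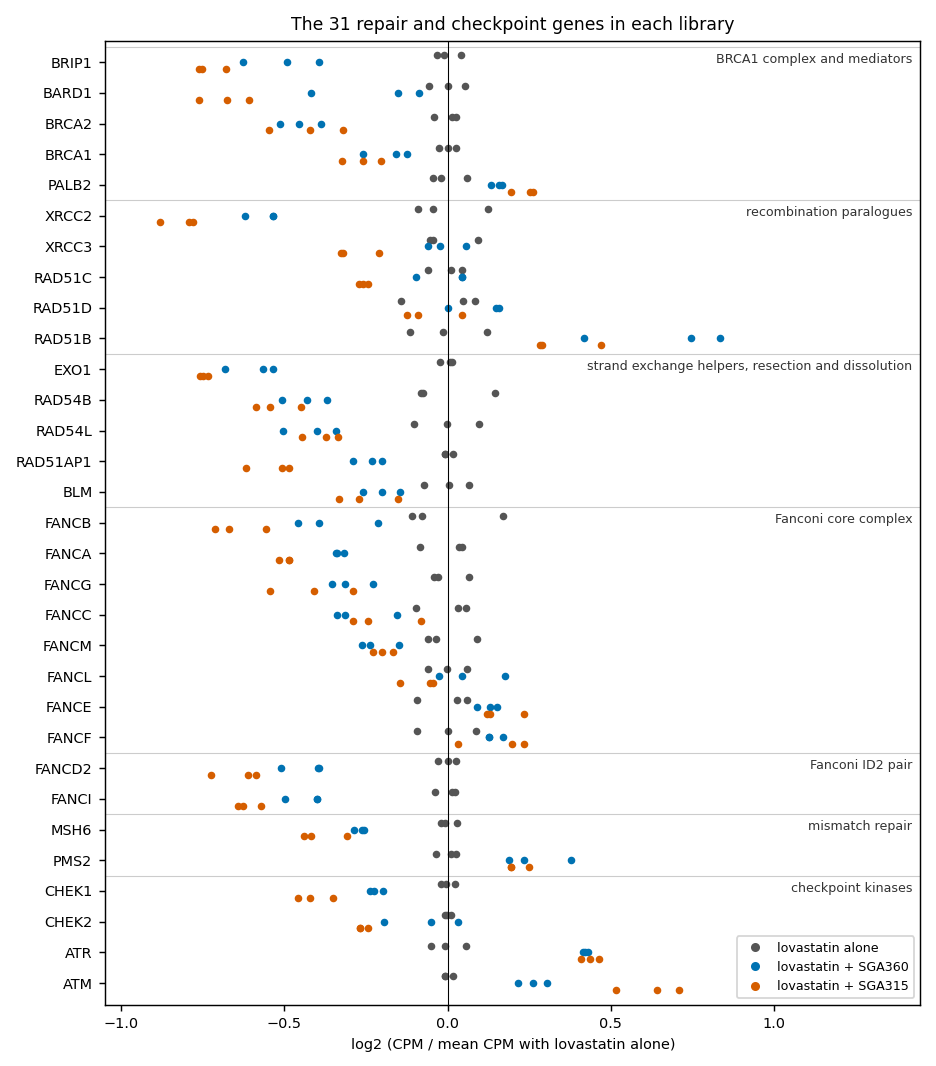
Level of each of the 31 genes in each library, as log2 of CPM over the mean CPM with lovastatin alone (horizontal axis), with genes grouped by role and 3 points per group. The points with SGA315 lie at or below those with SGA360 for most of the genes that are lower, down to −0.82 on average for XRCC2, while ATM, ATR, RAD51B, PMS2 and PALB2 lie to the right of the lovastatin points.

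The promoters of the 3 genes with the largest mean falls over both ligands (XRCC2, EXO1 and BRIP1) and of ATM and ATR, which had large mean rises, are printed to let the letters around the start sites be compared. RAD51B had the largest mean rise, but the starts listed for it lie inside the gene and not at its 5′ end, and they are not shown. Each is the RefSeq window of assembly GRCh38.p14 from 250 bases before to 50 after the start, 5′ to 3′ on the strand of the gene, and the assembly is not the one the counts were made on. The windows are chr7:152676092-152676391 on the minus strand for XRCC2, chr1:241847954-241848253 on the plus strand for EXO1, chr17:61863479-61863778 on the minus strand for BRIP1, chr11:108222817-108223116 on the plus strand for ATM and chr3:142578684-142578983 on the minus strand for ATR. Capitals mark matches, on either strand, to E2F site letters (TTTGGCGC, TTTCCCGC, TTTGCCGC or TTTCGCGC), to the cell cycle homology element (TTTGAA or TTCGAA), to CCAAT and to the core of the AHR response element (GCGTG), and no 2 matches overlap in these windows.
XRCC2: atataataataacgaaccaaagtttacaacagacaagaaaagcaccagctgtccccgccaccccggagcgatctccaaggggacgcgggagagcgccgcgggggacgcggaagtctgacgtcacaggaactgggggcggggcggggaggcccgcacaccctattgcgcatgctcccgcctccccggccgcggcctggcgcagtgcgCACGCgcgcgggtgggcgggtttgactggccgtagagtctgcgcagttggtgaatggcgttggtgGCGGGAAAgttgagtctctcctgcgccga
EXO1: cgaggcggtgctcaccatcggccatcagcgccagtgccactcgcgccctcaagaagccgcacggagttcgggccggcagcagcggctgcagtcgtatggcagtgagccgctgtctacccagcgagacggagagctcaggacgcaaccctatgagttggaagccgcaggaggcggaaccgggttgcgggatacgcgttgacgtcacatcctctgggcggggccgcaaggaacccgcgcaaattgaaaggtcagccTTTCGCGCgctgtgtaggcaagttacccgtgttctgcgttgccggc
BRIP1: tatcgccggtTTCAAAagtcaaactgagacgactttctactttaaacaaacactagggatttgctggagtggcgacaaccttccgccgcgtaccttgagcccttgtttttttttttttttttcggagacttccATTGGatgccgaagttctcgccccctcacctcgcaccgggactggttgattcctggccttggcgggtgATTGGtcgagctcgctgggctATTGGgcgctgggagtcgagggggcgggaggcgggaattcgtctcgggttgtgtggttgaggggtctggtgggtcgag
ATM: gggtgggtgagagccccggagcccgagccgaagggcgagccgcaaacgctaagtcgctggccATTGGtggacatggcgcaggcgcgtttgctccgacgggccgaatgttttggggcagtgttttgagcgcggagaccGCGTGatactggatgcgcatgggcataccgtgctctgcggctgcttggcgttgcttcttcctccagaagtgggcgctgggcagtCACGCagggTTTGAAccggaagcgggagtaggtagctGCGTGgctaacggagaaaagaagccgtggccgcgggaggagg
ATR: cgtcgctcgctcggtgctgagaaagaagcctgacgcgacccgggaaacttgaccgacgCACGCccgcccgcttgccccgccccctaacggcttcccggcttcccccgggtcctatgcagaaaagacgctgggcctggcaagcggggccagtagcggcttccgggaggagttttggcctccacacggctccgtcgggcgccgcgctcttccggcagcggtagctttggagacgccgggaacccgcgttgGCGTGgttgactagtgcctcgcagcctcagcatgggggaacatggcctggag
EXO1 has 1 E2F match, TTTCGCGC from base 5 after the start, and XRCC2 has 1, GCGGGAAA from base 22 after the start, the reverse of TTTCCCGC. BRIP1 has 3 CCAAT matches (written ATTGG) and 1 cell cycle homology match but no E2F match. ATM has 3 matches to the AHR core and ATR has 2, and neither window has an E2F match. ATM also has 1 CCAAT match and 1 cell cycle homology match. XRCC2 too has a match to the AHR core, CACGC from base 44 before the start. A second EXO1 window, not printed, has no E2F match and 1 match to the AHR core.

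Promoter windows were found for 29 of the 31 genes, 43 windows in all because some genes have several starts. FANCI and RAD54B had none in the table used. E2F letters were in 18.6% of these windows, in 7 genes (EXO1, FANCA, FANCC, FANCD2, MSH6, PMS2 and XRCC2), beside 4.79% of the 16456 windows of tested genes and 3.31% of all 35116 windows. Of those 7 genes, 6 were lower with both ligands and PMS2 was higher with both. Of all 29 genes with windows, 17 were lower with both and 5 higher with both. E2F letters were in 23.1% of the 26 windows of the former and 25% of the 8 windows of the latter. They were in 0 of the 9 windows of the other genes. The AHR core was in 48.8% of the windows of the 31 genes and 47.7% of those of tested genes (36.5% of all windows), CCAAT in 46.5% and 34.4% (34.6%), and the cell cycle homology letters in 6.98% and 12.1% (16.4%). A palindromic NRF1 site was in 0 of the 43 windows and in 1.96% of those of tested genes (1.24% of all windows). A match only describes the letters of a window.

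Among the 5 genes of the BRCA1 complex and its mediators, BRCA1, BRCA2, BARD1 and BRIP1 fell with both ligands and PALB2 rose with both. BRIP1, a helicase that binds BRCA1, was at 26.5, 25.2 and 25.6 CPM with lovastatin alone, 19.6, 18.3 and 16.7 with SGA360, and 15.3, 15.2 and 16.1 with SGA315. The 3 groups did not overlap, and every ligand library was below every control. The log2 fold change was −0.50 ± 0.069 (SE) with SGA360 (adjusted p = 4.4e-09) and −0.73 ± 0.073 with SGA315 (adjusted p = 5.23e-14). BARD1, which pairs with BRCA1 to form a ubiquitin ligase, was at 19.7, 20.4 and 18.9 CPM, then 18.5, 17.7 and 14.7 with SGA360, and 12.3, 11.6 and 12.9 with SGA315. Its SGA360 libraries lay just under the controls, and its SGA315 libraries lay clearly lower than both. BARD1 fell by 0.20 on the log2 scale with SGA360 (adjusted p = 0.0226, from 0.00468 to 0.347 over 13 alternatives) and by 0.68 with SGA315 (adjusted p = 1e-10). The SGA360 call on BARD1 ended without lovastatin replicate 2 (−0.17) and without SGA360 replicate 3 (−0.12), with DESeq2 (−0.22) and with scaling to totals (−0.08).

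BRCA1, the scaffold of this group, was at 64.2 ± 1.19 CPM (SD, n = 3) with lovastatin alone, 56.7 ± 2.72 with SGA360 and 53.5 ± 2.23 with SGA315. Both ligand groups lay below the controls and overlapped each other. Its log2 fold changes of −0.18 and −0.27 were among the smaller falls, and with scaling to totals the SGA360 value was −0.07 and no longer called. BRCA2, which prepares single strands for strand exchange, was at 98.1 ± 2.38 CPM in the controls, 71.8 ± 3.15 with SGA360 and 72.9 ± 5.77 with SGA315. These are falls of 0.45 and 0.43, with no overlap with the controls. PALB2, the bridge between BRCA1 and BRCA2, was at 31.1, 32.9 and 30.6 CPM with lovastatin alone, 35.4, 35.2 and 34.6 with SGA360, and 37.8, 36.1 and 37.6 with SGA315. The groups did not overlap, and the ligand libraries were all above the controls. The rises were 0.16 (adjusted p = 0.0123, from 2.54e-05 to 0.102 over 13 alternatives) and 0.24 (adjusted p = 0.000135). The SGA360 call on PALB2 was lost with DESeq2 (0.14) and without lovastatin replicate 1 (0.13) or 3 (0.12) or SGA360 replicate 1 (0.14) or 2 (0.14).

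The 5 paralogues RAD51B, RAD51C, RAD51D, XRCC2 and XRCC3, which assist strand exchange, did not move as 1 group. With SGA360, XRCC2 was called lower and RAD51B higher, and RAD51C, RAD51D and XRCC3 were not called. With SGA315, XRCC2, RAD51C and XRCC3 were called lower, RAD51B higher, and RAD51D was not called. XRCC2 was at 25.3, 21.8 and 22.5 CPM with lovastatin alone, 16.0, 16.0 and 15.1 with SGA360, and 13.5, 12.6 and 13.4 with SGA315. The groups were apart in all libraries, with SGA315 lowest. The falls of XRCC2 were 0.56 ± 0.074 (adjusted p = 7.7e-10) and 0.82 ± 0.078 (adjusted p = 1.09e-14), the latter the largest among the 31 genes with SGA315.

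RAD51B was at 4.11, 4.51 and 3.83 CPM with lovastatin alone, 5.55, 6.96 and 7.4 with SGA360, and 5.07, 5.05 and 5.75 with SGA315. All ligand libraries were above the controls, and the 2 ligand groups overlapped. It rests on 711 counts over all 9 libraries, the fewest of the 31 genes. Its rise was 0.67 ± 0.137 with SGA360 (adjusted p = 2.05e-05) and 0.35 ± 0.147 with SGA315 (adjusted p = 0.0294, from 0.00345 to 0.508 over 13 alternatives). The SGA315 call on RAD51B was lost with DESeq2 (0.33), with the entry of lowest accession (0.12), and without lovastatin replicate 1 (0.33) or 3 (0.28) or SGA315 replicate 3 (0.29).

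RAD51C was at 27.7, 29.1 and 29.8 CPM with lovastatin alone, 27.0, 29.8 and 29.8 with SGA360, and 23.9, 24.1 and 24.4 with SGA315. XRCC3, which forms a complex with RAD51C, was at 33.5, 30.2 and 30.4, then 30.9, 32.6 and 30.1, and then 25.1, 27.1 and 25.0 CPM. In both genes the SGA360 libraries overlapped the controls and the SGA315 libraries lay below all others. The 95% intervals of the SGA360 change were −0.12 to 0.12 for RAD51C and −0.12 to 0.11 for XRCC3, and the falls with SGA315 were 0.26 and 0.29 (adjusted p = 0.000275 and 5.37e-05). RAD51D was at 24.6, 24.0 and 21.0 CPM, 25.7, 25.9 and 23.2 with SGA360, and 21.3, 23.9 and 21.8 with SGA315. All 3 groups of RAD51D overlapped, and its changes of 0.11 and −0.05 did not pass the test. GENCODE 29 lets 45.3% of the exonic bases of XRCC3 overlap exons of KLC1, found without regard to strand. KLC1 changed by −0.06 with SGA360, not called, and by −0.22 with SGA315, called lower. The strand setting of the counting is not given in the sources used here, so the level and changes of XRCC3 are uncertain.

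All 5 helpers of strand exchange and enzymes of resection and dissolution fell with both ligands, with a median of −0.41 with SGA360 and −0.53 with SGA315. EXO1, the nuclease that lengthens resected ends and also serves mismatch repair, was at 27.1, 27.2 and 26.5 CPM with lovastatin alone, 18.2, 18.6 and 16.8 with SGA360, and 15.9, 16.0 and 16.2 with SGA315. The 3 groups did not overlap. EXO1 fell by 0.58 ± 0.067 (adjusted p = 1.5e-11), the largest fall of the 31 genes with SGA360, and by 0.75 ± 0.07 with SGA315 (adjusted p = 5.98e-15). RAD51AP1, which promotes strand pairing, was at 71.4, 70.2 and 70.2 CPM, then 61.4, 60.1 and 57.8, and then 49.7, 50.4 and 46.0. Its groups were apart in every library, and its falls were 0.24 and 0.53 (adjusted p = 2.02e-06 and 8.94e-17).

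The motor proteins RAD54L and RAD54B, which remodel DNA during strand exchange, fell by 0.41 and 0.43 with SGA360 and by 0.39 and 0.53 with SGA315. RAD54L went from 41.4 ± 2.85 CPM to 31.1 ± 1.77 and 31.7 ± 1.23, and RAD54B from 21.1 ± 1.92 to 15.7 ± 0.772 and 14.7 ± 0.698. The ligand libraries of both genes lay below the controls and overlapped each other. In GENCODE 29, 63.3% of the exonic bases of RAD54B lie in exons of FSBP and 18% of those of RAD54L in exons of LRRC41. FSBP changed by −0.21 with SGA360, not called, and by −0.57 with SGA315, called lower. LRRC41 was higher, by 0.38 and 0.48. The overlaps were found without regard to strand and the strand setting is not given, so the size of the change of either gene is uncertain. BLM, the helicase that dissolves joined strands, had the smallest falls of the group, 0.21 and 0.26 (26.2 ± 1.3 CPM to 22.8 ± 0.896 and 22.1 ± 1.44). Both calls on BLM were lost with scaling to totals (−0.09 and −0.13).

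**Figure D2:**
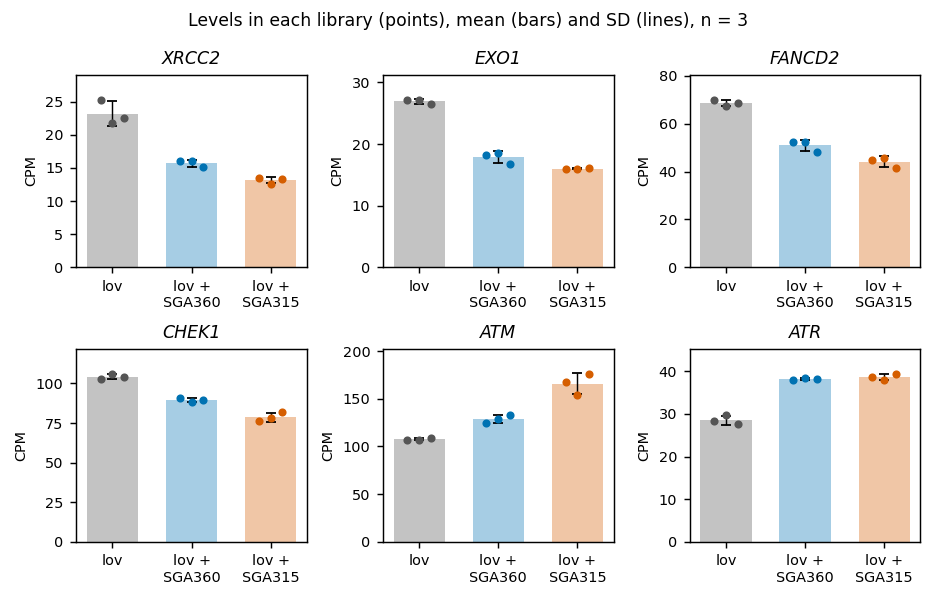
CPM of 6 of the genes in each library (points), with the group mean (bars from 0) and SD (lines), n = 3 libraries, where lov stands for lovastatin. XRCC2, EXO1, FANCD2 and CHEK1 step down from lovastatin alone to SGA360 to SGA315, ATM steps up, and ATR is higher with both ligands, at 38.3 and 38.7 CPM on average against 28.6.

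The 8 genes of the Fanconi core complex, the ubiquitin ligase of the pathway, were split. FANCA, FANCB, FANCC, FANCG and FANCM fell with both ligands, FANCE and FANCF were called higher with SGA315, and FANCL, the catalytic subunit, was called with neither. FANCB was at 8.02, 6.76 and 6.62 CPM with lovastatin alone, 5.19, 6.15 and 5.43 with SGA360, and 4.48, 4.35 and 4.85 with SGA315. The groups did not overlap, though FANCB rests on 766 counts over the 9 libraries. Its falls were 0.35 ± 0.123 (adjusted p = 0.0115, from 0.00565 to 0.0898 over 13 alternatives) and 0.65 ± 0.132 (adjusted p = 1.53e-05). The SGA360 call on FANCB was lost with DESeq2 (−0.36), with scaling to totals (−0.23), and without lovastatin replicate 1 (−0.27) or SGA360 replicate 1 (−0.30).

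FANCA, a scaffold of the core complex, was at 92.1 ± 4.6 CPM in the controls, 73.1 ± 0.687 with SGA360 and 65.3 ± 0.716 with SGA315. It fell by 0.33 and 0.49, with no overlap between groups. FANCG, its partner, fell by 0.29 and 0.40, FANCC by 0.26 and 0.20, and FANCM, the helicase that anchors the complex to DNA, by 0.21 and 0.19. The SGA315 libraries of FANCC overlapped the controls, and its calls were lost with scaling to totals (−0.14 and −0.08). Those of FANCM were lost with scaling to totals (−0.09 and −0.07), with DESeq2 (−0.22 with either ligand) and without lovastatin replicate 2 (−0.16 and −0.15). FANCL was at 31.6, 30.3 and 29.1 CPM with lovastatin alone, 34.3, 31.3 and 29.8 with SGA360, and 29.2, 29.4 and 27.4 with SGA315, and both ligand groups overlapped the controls. FANCE, which contacts FANCD2, was at 18.2, 18.6 and 16.7 CPM, then 19.0, 19.5 and 19.8, and then 19.4, 21.0 and 19.5. Its ligand libraries were all above the controls. The log2 fold changes of FANCE and FANCF, an adaptor of the complex, were 0.13 and 0.14 with SGA360, not called, and 0.16 each with SGA315 (adjusted p = 0.046 and 0.0384). Over 13 alternatives the adjusted p of FANCE with SGA315 ran from 0.000611 to 0.286 and that of FANCF from 0.000415 to 0.272. Each of these SGA315 calls was lost under 9 of the 13, among them DESeq2 (0.14 each), RLE scaling (0.14 each) and the fit without lovastatin replicate 3 (0.10 each). FANCE was also lost without lovastatin replicate 1 (0.16) and SGA315 replicates 1 and 2 (0.17 and 0.11), and FANCF without lovastatin replicate 2 (0.16) and SGA315 replicates 1 and 2 (0.11 and 0.13).

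FANCD2 and FANCI, the pair that the core complex modifies, both fell with both ligands. FANCD2 was at 70.0, 67.4 and 68.8 CPM with lovastatin alone, 52.2, 52.3 and 48.2 with SGA360, and 45.0, 45.7 and 41.6 with SGA315. FANCI was at 139, 145 and 144 CPM, then 101, 108 and 108, and then 92.3, 95.9 and 91.3. In both genes the groups were apart in all libraries, with SGA315 lowest. FANCD2 fell by 0.43 ± 0.045 and 0.64 ± 0.047 (adjusted p = 5.63e-13 and 1.94e-19), and FANCI by 0.44 ± 0.035 and 0.61 ± 0.036 (adjusted p = 9.64e-18 and 3.92e-24). Every alternative kept these calls.

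The mismatch repair genes moved in opposite directions. MSH6, which recognises mismatches, was at 116, 112 and 113 CPM with lovastatin alone, 93.2, 95.1 and 94.8 with SGA360, and 85.1, 83.7 and 91.8 with SGA315. Its groups did not overlap, and it fell by 0.27 ± 0.037 and 0.39 ± 0.038 (adjusted p = 2.51e-09 and 1.85e-14). PMS2, an endonuclease of mismatch repair, was at 41.8, 42.3 and 40.5 CPM, then 48.9, 47.3 and 54.0, and then 47.5, 47.5 and 49.4. All ligand libraries of PMS2 were above the controls, and the rises were 0.26 ± 0.051 and 0.21 ± 0.052 (adjusted p = 7.62e-06 and 0.000242). PMS2 has near-identical pseudogene copies, and 3 of them held 1057 (PMS2CL), 1539 (PMS2P1) and 1182 (PMS2P3) counts beside 6171 for PMS2, so its level is uncertain. Of the exonic bases of MSH6, 21% lie in exons of FBXO11, which rose by 0.20 and 0.23.

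Among the 4 checkpoint kinases, ATM and ATR rose with both ligands while CHEK1 fell with both and CHEK2 was called lower with SGA315. ATM, the kinase that responds to double-strand breaks, was at 107, 107 and 109 CPM with lovastatin alone, 125, 129 and 133 with SGA360, and 168, 154 and 176 with SGA315. The 3 groups did not overlap, with SGA315 highest. ATM rose by 0.26 ± 0.038 with SGA360 (adjusted p = 1.15e-08) and by 0.63 ± 0.037 with SGA315 (adjusted p = 3.2e-24). ATR, the kinase that responds to stalled forks, was at 28.4, 29.7 and 27.6 CPM, then 38.1, 38.5 and 38.3, and then 38.7, 37.9 and 39.4. Both ligand groups of ATR lay above the controls at the same level, and the rises were 0.42 ± 0.056 and 0.44 ± 0.057 (adjusted p = 1.09e-09 and 4.29e-10). All 4 of these calls held under every alternative.

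CHEK1, the kinase that ATR activates, was at 103, 106 and 104 CPM with lovastatin alone, 91.0, 88.5 and 89.3 with SGA360, and 76.0, 77.9 and 81.8 with SGA315. The groups were apart in every library, opposite in direction to ATR. CHEK1 fell by 0.22 ± 0.037 and 0.41 ± 0.038 (adjusted p = 5.18e-07 and 4.67e-15). CHEK2, the kinase that ATM activates, was at 20.7, 21.0 and 20.8 CPM, then 18.2, 20.1 and 21.3, and then 17.3, 17.3 and 17.6. Its SGA360 libraries spanned the controls and its SGA315 libraries lay below all others. The changes of CHEK2 were −0.08 (adjusted p = 0.355, from 0.173 to 0.754 over the alternatives) and −0.26 (adjusted p = 0.00154). With scaling to totals the latter was −0.14 with adjusted p = 0.0878, the highest of a range from 0.00068 over the 13 alternatives.

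Compared directly at the same dose and time, SGA360 left 15 of the 31 genes higher than SGA315 did and 1, ATM, lower. The other 15 were not called, and the median log2 difference was 0.15. Over all genes 42.7% were called in that comparison, 21.8% higher with SGA360 and 20.9% lower, with a median of −0.01. BARD1 had the largest difference, 0.49 ± 0.086 (adjusted p = 3.07e-06), and its SGA360 and SGA315 libraries did not overlap. ATM differed by −0.36 ± 0.035 (adjusted p = 1.12e-13). Among the genes called, the next largest were RAD51B with 0.32, RAD51AP1 with 0.30, XRCC3 with 0.28, and RAD51C and XRCC2 with 0.26 each. After these came BRIP1 with 0.24, FANCD2 with 0.21, CHEK1 with 0.19, and FANCI and CHEK2 with 0.18 each. Of the 31 genes, 15 lay wholly higher with SGA360 than with SGA315 and 2 wholly lower, beside 24.6% of all genes in each direction. All 5 of the paralogues and both members of the FANCD2 and FANCI pair were higher with SGA360 than with SGA315. The calls on RAD51B, RAD51D (0.17), CHEK2 and FANCL (0.15) had adjusted p = 0.0408, 0.0447, 0.038 and 0.0358, which rose to 0.161, 0.194, 0.164 and 0.302 over the alternatives.

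For 10 of those 16 genes the call was kept under all 13 alternatives. RAD51B lost it without SGA360 replicate 2 (0.27) or 3 (0.25) or SGA315 replicate 1 or 2 (0.29 each). RAD51D lost it without SGA360 replicate 1 (0.15) or 2 (0.14) or SGA315 replicate 1 (0.13) or 3 (0.15), and FANCL without SGA360 replicate 1 (0.09) or SGA315 replicate 1 (0.17) or 3 (0.12). CHEK2 lost it without SGA360 replicate 2 (0.17) or 3 (0.14) or any 1 of the SGA315 libraries (0.18 to 0.19). DESeq2 also ended the calls on RAD51B (0.34), RAD51D (0.18), FANCL (0.16) and CHEK2 (0.20), and scaling to totals that on RAD51D (0.16). BRIP1 (0.24, adjusted p = 0.00993) lost it without SGA360 replicate 1 (0.18), and MSH6 (0.12, adjusted p = 0.00837) without SGA315 replicate 1 (0.11) or 2 (0.09).

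Several genes called with both ligands showed no called difference between them. ATR differed by −0.02 with a 95% interval of −0.12 to 0.09, BRCA2 by −0.02 (−0.11 to 0.07), RAD54L by −0.02 (−0.14 to 0.10) and PALB2 by −0.08 (−0.19 to 0.02). EXO1 differed by 0.17 (0.01 to 0.32, adjusted p = 0.0719, from 0.0409 to 0.232 over the alternatives) and FANCB by 0.30 (0.03 to 0.58, adjusted p = 0.0695). These intervals bound the differences, and a p over the threshold does not show that the compounds act alike on a gene.

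**Figure D3:**
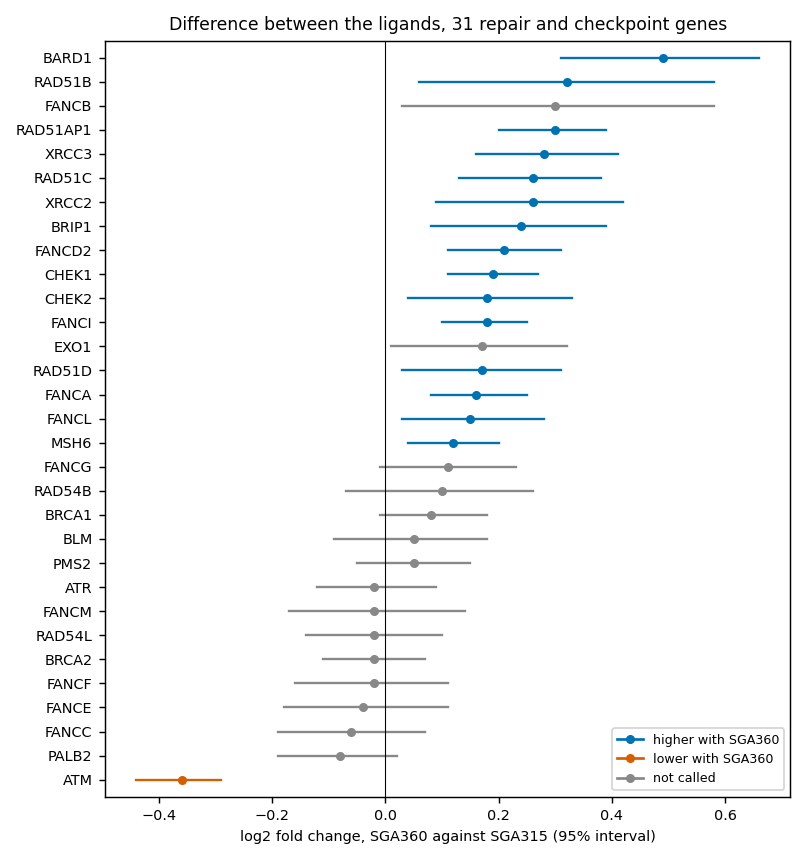
Log2 fold change of SGA360 against SGA315 for each of the 31 genes (points) with its 95% interval (lines), ordered by size and coloured by call. 15 genes, led by BARD1 at 0.49, are called higher with SGA360, and ATM at −0.36 is the 1 gene called lower.

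The other genes of these pathways, taken from lists, did not all share the lower side. Of 27 other homologous recombination genes tested, 10 were called higher and 10 lower with SGA360 (median 0.00) and 11 higher and 12 lower with SGA315 (median −0.07). DNA2, a resection nuclease, fell by 0.32 and 0.60, from 88.8 ± 3.6 CPM to 71.0 ± 2.64 and 58.6 ± 2.55. RAD50 and NBN, which with MRE11 hold and trim broken ends, rose by 0.24 each with SGA360 and by 0.45 and 0.33 with SGA315. MRE11 changed by 0.06 with SGA360, not called, and rose by 0.13 with SGA315.

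Of 15 other Fanconi genes, 4 were higher and 7 lower with each ligand, with medians of −0.10 and −0.09. UBE2T, the conjugating enzyme of the core complex, fell by 0.47 and 0.81, CENPX, a partner of FANCM, by 0.79 and 1.06, and the nuclease FAN1 rose by 0.24 and 0.55. Of 13 genes of the BRCA1-A complex and of signalling at breaks, 5 and 6 were higher and 3 and 3 lower, with medians of 0.05 and 0.13. In that list H2AX, the histone marked at breaks, fell by 0.90 and 1.24, and ABRAXAS1, the scaffold of the BRCA1-A complex, rose by 0.31 and 0.73. Of 18 other checkpoint genes, 2 were higher with each ligand and 13 and 14 lower, with medians of −0.29 and −0.28. CLSPN, which couples ATR to CHEK1, fell by 0.86 and 1.16, CDC25A, the phosphatase that CHEK1 restrains, by 0.71 and 1.09, and the clamp loader RAD17 rose by 0.41 and 0.57. TOPBP1, the activator of ATR, fell by 0.32 and 0.12, and the second value was 0.00 with scaling to totals.

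Of 5 other mismatch repair genes, 2 were higher and 1 lower with each ligand, with medians of 0.04 and 0.05. Of 10 end joining genes, 3 and 4 were higher and 3 and 3 lower (medians −0.00 and 0.04). XRCC6 and PRKDC, of the complex that holds ends for joining, fell by 0.52 and 0.45 with SGA360 and by 0.60 and 0.56 with SGA315, and the polymerase POLL rose by 0.62 and 0.84. Of 19 E2F and DREAM regulators, which govern genes of the cell cycle, 5 and 6 were higher and 8 and 12 lower (medians −0.07 and −0.24). E2F1 fell by 0.71 and 1.12, from 108 ± 1.07 CPM to 65.7 ± 2.94 and 49.7 ± 4.09, E2F8 by 1.16 and 1.58, and MYBL2 by 0.67 and 1.31. The part of E2F1, E2F8 and MYBL2 in the falls of the 31 genes was not tested. On the scale of library totals the median of the E2F and DREAM list with SGA360 was 0.04, and those of the other Fanconi genes were 0.01 and 0.03.

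**Figure D4:**
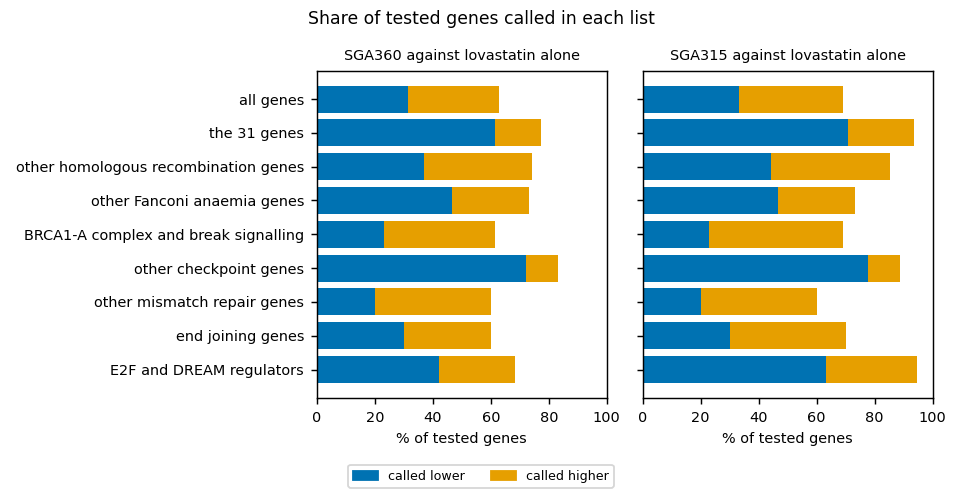
Share of the tested genes of each list called lower (blue) and higher (orange) with each ligand against lovastatin alone, in percent from 0 to 100, with all 14668 tested genes in the top bar. Of the 31 genes, 61.3% were called lower with SGA360 and 71% with SGA315, and the other checkpoint genes had the highest shares called lower, 72.2% and 77.8%, beside 31.4% and 33.2% of all genes.

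9 of the 31 genes have a head-to-head neighbour that was tested, a gene whose RefSeq start lies within 1000 bases and points away, which gave 10 pairs because BRCA1 has 2. With SGA360 the genes of 5 pairs were called in opposite directions and those of 1 pair in the same direction, and in 4 pairs 1 or both were not called. With SGA315, 8 pairs were called in opposite directions and 2 in the same. Over all 1099 head-to-head pairs of tested genes, found in the same way, 15.3% were called in opposite directions and 24.2% in the same with SGA360, and 20.7% and 30% with SGA315. BRCA1 was lower while NBR2 rose by 0.64 and 0.81 and NBR1, which faces the upstream start of BRCA1, rose by 0.31 and 0.84. NBR1 was at 108, 112 and 116 CPM with lovastatin alone, 136, 138 and 142 with SGA360, and 205, 196 and 204 with SGA315, and its groups did not overlap.

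RAD51AP1 fell while its neighbour FERRY3 rose by 0.52 and 0.43, and FANCB fell while MOSPD2 rose by 0.24 and 0.30. ATM rose while NPAT, a regulator of histone genes, fell by 0.20 and 0.11 (adjusted p = 0.0487 for the latter), and with scaling to totals the NPAT values were −0.08 and 0.01, neither of them called. PMS2 rose with both ligands while AIMP2 rose by 0.10 with SGA360 and fell by 0.20 with SGA315, and on the scale of totals the latter was −0.08 and not called. BLM and CHEK2 were lower with SGA315 while CRTC3-AS1 and HSCB were higher, by 0.49 and 0.29. The pairs that shared a direction with SGA315 were XRCC3 with ZFYVE21, which fell by 0.51, and PALB2 with DCTN5, which rose by 0.17. BRCA1 and NBR2 overlap in the RefSeq table, so reads near their starts could have been assigned to either.

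**Figure D5:**
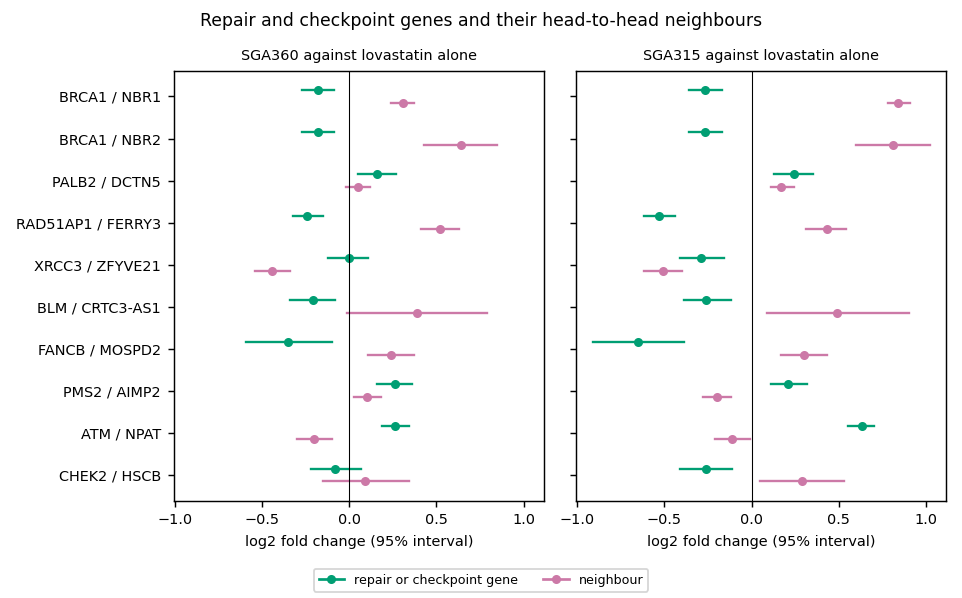
Log2 fold change (points) and 95% interval (lines) of each gene and its head-to-head neighbour, with SGA360 (left) and SGA315 (right) against lovastatin alone. The neighbours of BRCA1, RAD51AP1 and FANCB lie above 0 in both panels while these genes lie below it, and ATM lies above 0 with NPAT below it.

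Some other members share exons with a gene on the same stretch in GENCODE 29: FANCL with VRK2 (26.6% of its exonic bases), FANCA with ZNF276 (22.4%), FANCI with POLG (8.33%) and RAD51D with the RAD51L3-RFFL readthrough (4.15%). ZNF276 and POLG were lower with both ligands, by 0.39 and 0.32 with SGA360 and 0.16 and 0.35 with SGA315. VRK2 was higher with SGA360 (0.28) and had 0.12 with SGA315, not called. These overlaps were found without regard to strand, and the strand setting is not stated. The share of such reads in the counts of these genes was not tested.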

How the data were processed

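The deposited table of the authors holds raw counts for each RefSeq transcript entry in each library, which the column names and the whole-number values show. The submitters' processing notes name TopHat2 2.0.13, HTSeq 0.5.4p3 and hg19. Annotation release and strand setting: not given in the sources used here. Labels gave the groups. Of 65325 entries, 64346 were named from a RefSeq table (GRCh38.p14) and 545 from GENCODE 29 alone. The other 434 (0.255% of counts) were left out. Because entries of a gene repeat the same reads, the entry with the highest total was used. Identical counts were found in 21 gene sets, from which 41 genes were removed, leaving 27655.

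Counts were tested in R 4.3.3 with edgeR 4.0.16 (TMM, filterByExpr with minimum count 10 and minimum total 15, quasi-likelihood F test, 1 coefficient per group, all 9 libraries). Adjusted p-values are Benjamini-Hochberg over 14668 genes, and calls are at 0.05. Levels are CPM on TMM-scaled library sizes. Alternatives were RLE scaling, scaling to totals, no filter, a replicate block, the lowest accession of each gene, DESeq2 1.42.0, the compared groups only and leaving out each library. The 3 comparisons were fixed by the groups. Replicates differed by more than counting noise (chi-square per degree of freedom 1.36 to 2.4). On simulated counts with 200 changed genes, 92%, 97% and 97% of 2-fold changes and 67%, 66% and 72% of 1.25-fold changes were recovered for SGA360, SGA315 and their difference, and 8.09%, 2.98% and 5.06% of the calls were on unchanged genes. In the data 62.7%, 69.2% and 42.7% of tested genes were called, far more than were changed in the simulation. The simulated shares may therefore not hold for these data.

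The 31 genes, roles and lists were chosen with earlier results of these data known. Most genes given per library are, by rule, those with the largest change of each role in each comparison and the smallest changes. CHEK1, CHEK2, PALB2 and PMS2 are given per library outside that rule. From the other lists, genes with the smallest p, TOPBP1 and E2F1 are named, some genes that the rule takes are not reported here, and MRE11, NBN, RAD17 and the neighbouring and overlapping genes were added after values were seen.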

Additional observations from a re-analysis of the deposited data

How the results depend on the processing

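No called change of the 31 genes reversed under any of the 13 alternatives. Of 24 genes called with SGA360, 17 kept the call under all of them, of 29 with SGA315, 22 did, and of 16 between the ligands, 10 did. With scaling to totals, the 31 genes had 9 calls higher with SGA360 and medians of −0.09 and −0.17 for SGA360 and SGA315, and all genes had 6459 higher and 3136 lower with SGA360 and 6919 higher and 3627 lower with SGA315. The 31 genes had 4 called higher with SGA315 in place of 7 with DESeq2 and with the lowest accession. DESeq2 called 1951 genes lower with SGA360 than with SGA315 in place of 3062. The median of the other lists together was −0.07, −0.12 and 0.03 (SGA360, SGA315, difference). It became 0.04 and 0.00 with scaling to totals, −0.09 without the filter and with DESeq2 and −0.08 with the lowest accession for SGA360, −0.14 with RLE and DESeq2 and −0.13 without the filter, with the lowest accession and with the compared groups only for SGA315, and 0.05 with DESeq2 for the difference. The median of the other Fanconi genes with SGA360 was 0.01 with scaling to totals.

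Leaving out 1 library at a time gave medians of the 31 genes from −0.25 to −0.21 with SGA360, −0.34 to −0.28 with SGA315 and 0.13 to 0.16 for the difference. The number called higher with SGA315 ran from 4 (without lovastatin replicate 3) to 6, and with SGA360 from 4 to 5. Medians of the other lists ran from −0.09 to −0.06, −0.11 to −0.09 and 0.03 to 0.05. With a replicate block the 31 genes had 5 higher and 19 lower, 7 and 22, and 15 and 1, and all genes 4675 higher and 4658 lower, 5343 and 4924, and 3280 and 3151 in the 3 comparisons, so the block changed no call of the 31 genes. Deviations from the group means correlated at r from 0.012 to 0.086 between same-numbered libraries and from −0.059 to 0.029 between others. Not every library correlated best with its own number. Since no correlation of a same-numbered pair passed 0.1, the numbers were not taken to pair the libraries.

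Sign changes were among values not called. With SGA360, RAD51C was 0.11 with scaling to totals, 0.00 with the replicate block, with the compared groups only and without lovastatin replicate 2, 0.04 with the lowest accession, 0.01 without lovastatin replicate 3 and 0.03 without SGA360 replicate 1, in a range of −0.05 to 0.03 over left-out libraries. XRCC3 was 0.11 with scaling to totals, 0.03 without lovastatin replicate 1 and 0.02 without SGA360 replicate 3 (range −0.05 to 0.03), CHEK2 0.04 with scaling to totals, and FANCL −0.00 without SGA360 replicate 1. With SGA315 and scaling to totals, RAD51D was 0.07 and FANCL 0.04. For the difference, BRCA2 was 0.01 without SGA360 replicate 3 and 0.04 without SGA315 replicate 3, RAD54L 0.02 and 0.00 without SGA360 replicate 3 and SGA315 replicate 2, FANCM 0.01 without SGA360 replicate 2 (range −0.05 to 0.01), FANCF 0.02 without SGA315 replicate 1, and FANCC and FANCE 0.00 without SGA315 replicate 2. The cause of these moves was not tested. Depth limits RAD51B (711 counts) and FANCB (766 counts) most.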
